A study of Mus musculus with 27 samples.

Results

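The 10 genes described here are the 4 receptors for fibroblast growth factors (*Fgfr1*, *Fgfr2*, *Fgfr3*, *Fgfr4*) and 6 genes that the extracellular signal-regulated kinase (ERK) pathway is known to switch on (*Spry1*, *Spry2*, *Spry4*, *Dusp6*, *Etv4*, *Etv5*). They were chosen by symbol and matched to Ensembl gene identifiers, and all 10 were found among the 48795 genes of each library. Their level was followed over 9 groups of cultured mouse cells with 3 libraries each, 27 in all, from embryonic stem cells toward gonadal progenitors. The question was how these genes varied with the dose of basic fibroblast growth factor (bFGF, also called FGF2) in the medium, which was 5, 12 or 20 ng/ml by stage.

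All groups came from 1 clone of XY embryonic stem cells, Tesco-CFP; R26-rtTA, clone 7, on an F1 background of C57BL/6 and CBA. CFP is a fluorescent reporter driven by TESCO, an enhancer of *Sox9*, and rtTA is the protein that lets doxycycline switch on a transgene. The ESC group was routinely grown in 2i/LIF, where 2i is an inhibitor of MEK (the kinase just above ERK) and one of GSK3, and passed once through serum replacement with LIF before differentiation. Which of these media the sequenced ESC came from is not stated, and no bFGF is named for them. EpiSC had 12 ng/ml bFGF and 20 ng/ml Activin A for 60 h. M cells, the early mesoderm stage, then had 20 ng/ml bFGF, 10 ng/ml BMP4 and 10 µM LY294002, an inhibitor of phosphatidylinositol 3-kinase, for 36 h. The 5 intermediate mesoderm conditions, IM1 to IM5, all had 5 ng/ml bFGF and 20 ng/ml BMP4 for 3.5 days. IM1 had nothing more and IM3 had retinoic acid at 100 nM. IM2 had retinoic acid with 10 ng/ml Activin A, IM4 had retinoic acid with 0.3 µM CHIR99021, which inhibits GSK3, and IM5 had all 3. iSLC were made from IM3 cells that carried lentiviral *Nr5a1* and *Dmrt1*, with doxycycline for 4 days. Their medium held FGF9, EGF and Activin A at 50 ng/ml each, with follicle-stimulating hormone, prostaglandin D2 and testosterone, and the CFP-positive cells were sorted before RNA was taken. Each bFGF dose thus belonged to its own stage, so dose and stage cannot be told apart.

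FGFs bind receptor tyrosine kinases at the cell surface, which pass the signal through RAS, RAF and MEK to ERK. ERK in turn raises the transcription of genes that damp the same pathway. Sprouty proteins (*Spry1*, *Spry2*, *Spry4*) act between the receptor and RAF, and the phosphatase DUSP6 removes phosphate from ERK itself. ETV4 and ETV5 are ETS transcription factors that carry the signal to further genes. In early embryos FGF signalling is known for its part in leaving the naive pluripotent state and in forming mesoderm, and later for kidney and testis development.

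Totals of expected counts ran from 35923040 to 84876603 per library. Naive pluripotency markers were highest in ESC (summed level of 5 genes 657 to 669 TPM, transcripts scaled for their length and for the library total), primed epiblast markers in EpiSC (795 to 809) and early mesoderm markers in M (827 to 899). Intermediate mesoderm is the study's name for IM1 to IM5, and its 5 markers did not set all of these apart. They summed to 139 to 167 TPM in IM3 and 112 to 128 in IM4, against 52.4 to 64.0 in M. In IM2 (32.7 to 36.7), IM5 (21.7 to 26.2) and IM1 (13.1 to 14.2) the sum was below M. Of these markers, *Wt1* was at 138 to 165 TPM in IM3, while *Osr1* was at 0.80 to 1.44, *Lhx1* at 0.44 to 0.45, *Pax8* at 0.04 or less and *Pax2* at 0.07 or less. In iSLC the introduced *Nr5a1* and *Dmrt1* reached 87.2 to 100 and 192 to 228 TPM. *Sox9* was at 23.3 to 26.5 TPM there and at 34.5 to 45.5 in IM3. Of the other Sertoli genes *Dhh* was at 1.53 to 2.38 in iSLC (0.66 to 0.72 in IM3), *Amh* at 0.47 to 0.61 and *Ptgds* at 0.43 to 0.56. Red blood cell transcripts (6 genes) separated the groups. They summed to 11.7 to 91.0 TPM in ESC, M, IM3 and IM4 (12 libraries) and to 1.57 to 4.54 in the other 15, of which EpiSC and iSLC listed 3 of the 6 genes at 0 in every library. The trend of counts with GC content largely followed this division. For each library it was the median log2 deviation of the most GC-rich genes, less that of the most GC-poor. Deviations were taken from each gene's mean over the libraries. This difference ran from −0.546 to −0.0509 in ESC, M, IM3 and IM4 and from −0.0859 to 0.624 in the other 15 libraries. These ranges overlapped through IM2 replicate 1 (−0.0859). All comparisons below other than IM4 with IM3 and IM5 with IM2 cross this division or average over it, and its part in their results was not tested. In whole cultures, fewer cells that express a gene and less RNA per cell cannot be told apart. The study describes the libraries of a group as biological replicates, and p-values measure the spread between them.

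ETV4 and ETV5 bind DNA around a GGAA core, and the bases before the starts of members were searched for 2 motifs that hold it. RefSeq promoters (GRCm38.p6) were at hand for 7 of the 10 genes, with 2 starts each for *Fgfr3* and *Etv5*, and not for *Fgfr1*, *Spry4* and *Etv4*. In the 250 bases before each start, CCGGAA and CAGGAA were searched on both strands. One or the other occurred in 35.1% of 32851 promoters of the same length (CCGGAA in 12.0%, CAGGAA in 25.7%), and in 4 of the 9 member promoters. CAGGAA was found in *Spry2* (98 bases before the start, position −98), *Fgfr2* (−209) and the second start of *Etv5* (−57, on the other strand), and CCGGAA in *Fgfr4* (−178). The starts are those of RefSeq, and the windows of *Fgfr2*, *Fgfr3*, *Fgfr4* and *Etv5* overlap the gene bounds given below. The matches in *Fgfr2*, *Fgfr4* and *Etv5* lie within those bounds. No match to either motif was found in *Spry1*, *Fgfr3*, *Dusp6* or the first start of *Etv5*. The core alone was not counted, and it also occurs outside these 2 motifs, as in the *Dusp6* sequence below. The 4 sequences below are shown because *Spry2*, *Fgfr4* and *Fgfr2* hold a match and differed in direction in iSLC, and *Dusp6*, which holds none, was the member whose group means rose over the 3 bFGF doses. Each is printed 5′ to 3′ on the strand of the gene, with the match in capitals.
Spry2 (chr14:105896820-105897069, minus strand): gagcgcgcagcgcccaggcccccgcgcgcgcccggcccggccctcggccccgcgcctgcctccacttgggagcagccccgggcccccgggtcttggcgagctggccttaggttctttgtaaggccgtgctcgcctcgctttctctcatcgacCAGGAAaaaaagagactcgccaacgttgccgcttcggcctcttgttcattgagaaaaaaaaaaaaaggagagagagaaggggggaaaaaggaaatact
Fgfr4 (chr13:55152568-55152817, plus strand): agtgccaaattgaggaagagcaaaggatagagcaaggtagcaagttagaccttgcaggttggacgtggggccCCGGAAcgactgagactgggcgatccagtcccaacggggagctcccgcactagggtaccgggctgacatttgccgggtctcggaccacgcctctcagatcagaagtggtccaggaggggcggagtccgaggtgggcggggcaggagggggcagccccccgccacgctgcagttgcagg
Fgfr2 (chr7:130266809-130267058, minus strand): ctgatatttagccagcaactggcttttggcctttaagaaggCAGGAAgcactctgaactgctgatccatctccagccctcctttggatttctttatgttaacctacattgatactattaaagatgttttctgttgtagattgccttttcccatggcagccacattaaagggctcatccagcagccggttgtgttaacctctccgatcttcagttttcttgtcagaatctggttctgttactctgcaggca
Dusp6 (chr10:99262981-99263230, plus strand): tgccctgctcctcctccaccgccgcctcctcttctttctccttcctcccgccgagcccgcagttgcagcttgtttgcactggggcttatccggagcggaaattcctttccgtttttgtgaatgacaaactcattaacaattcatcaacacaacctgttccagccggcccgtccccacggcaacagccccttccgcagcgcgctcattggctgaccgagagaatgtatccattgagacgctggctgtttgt

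On GRCm38 the receptor genes lie at chromosome 8, 25513654 to 25575718 (*Fgfr1*, ENSMUSG00000031565), chromosome 7, 130162451 to 133123350 (*Fgfr2*, ENSMUSG00000030849), chromosome 5, 33721674 to 33737068 (*Fgfr3*, ENSMUSG00000054252) and chromosome 13, 55152640 to 55168759 (*Fgfr4*, ENSMUSG00000005320). The Sprouty genes lie at chromosome 3, 37639947 to 37644598 (*Spry1*, ENSMUSG00000037211), chromosome 14, 105891947 to 105896819 (*Spry2*, ENSMUSG00000022114) and chromosome 18, 38586247 to 38601415 (*Spry4*, ENSMUSG00000024427). *Dusp6* (ENSMUSG00000019960) lies at chromosome 10, 99263231 to 99267489, *Etv4* (ENSMUSG00000017724) at chromosome 11, 101769742 to 101785371, and *Etv5* (ENSMUSG00000013089) at chromosome 16, 22381309 to 22439719. All 10 are protein-coding, and values are per gene, over all its exons, so that splice forms of a receptor are not told apart. Some exons are shared with other genes. The share of exon bases that overlap a gene on the other strand was 24.4% for *Spry1* (Gm42922), 13.9% for *Fgfr3* (G630022F23Rik) and 1.66% for *Fgfr1* (Gm16159). For *Fgfr2*, 3.04% overlapped *Ctbp2* on the same strand. Whether counting used strand is not given in the sources used here, so the values of *Spry1*, *Fgfr3* and *Fgfr1* may hold reads of the neighbour. Those of *Fgfr2* may too, and there strand could not tell the genes apart.

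*Fgfr1* was the most abundant receptor in every group. Its level per length, in TPM, was 65.9 to 78.4 in the 3 ESC libraries and 72.4 to 79.0 in EpiSC, which overlapped. In normalized counts, used for the fits below, these groups did not overlap. EpiSC was 1.19-fold higher there (log2 fold change 0.25 ± 0.0433, edgeR adjusted p = 1.57e-05), under the fold of 2 used for calls. *Fgfr1* was at 125 to 139 TPM in M, between 99.8 and 151 over IM1 to IM5, and 168 to 180 in iSLC. The range of group means was 2.42-fold. *Fgfr1* thus varied least of the 10 genes, and the highest group was iSLC.

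*Fgfr2*, the receptor whose splice forms are known to read signals between epithelium and mesenchyme, fell and then rose. Its TPM was 30.9, 30.0 and 29.6 in ESC, 11.9, 11.5 and 10.9 in EpiSC and 39.6, 36.6 and 38.3 in M. None of these 3 groups overlapped. In the fit across all genes (edgeR quasi-likelihood, Benjamini-Hochberg), the log2 fold change of *Fgfr2* was −1.15 ± 0.0826 (SE, n = 3 and 3) from ESC to EpiSC, adjusted p = 4.98e-12. From EpiSC to M it was 1.58 ± 0.0824, adjusted p = 2.55e-15 (edgeR). For a call, with the thresholds of the study, the adjusted p had to be 0.01 or lower, the fold 2 or higher and the mean normalized count 100 or higher.

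*Fgfr3* and *Fgfr4* were the low receptors, and both were highest in the IM groups. *Fgfr3* was at 1.15, 1.54 and 1.9 TPM in ESC and 0.96, 0.80 and 0.99 in EpiSC, and at 9.12, 7.30 and 7.52 in M. It lay between 10.7 and 15.7 in all 15 IM libraries. From EpiSC to M it rose 8.84-fold (log2 fold change 3.14 ± 0.114, edgeR adjusted p = 1.09e-18), and from M to the mean of IM1 to IM5 it was 1.67-fold higher, which passed the p but not the fold.

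*Fgfr4* was the lowest receptor in every group, and its main rise came after M. It was at 0.53, 0.61 and 0.66 TPM in M, and the lowest of the 15 IM libraries held 2.26 and the highest 4.58. The rise from M to the mean of IM1 to IM5 was 4.79-fold (log2 fold change 2.26 ± 0.128, n = 15 and 3, edgeR adjusted p = 8.45e-15). Counts behind the lowest values were small, down to 44 for *Fgfr4* and 97 for *Fgfr3* in 1 library. The fall of *Fgfr4* from ESC to EpiSC (log2 fold change −1.30 ± 0.167) rests on means of 0.83 and 0.34 TPM, and was not called by limma on log2(TPM + 1).

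**Figure D1:**
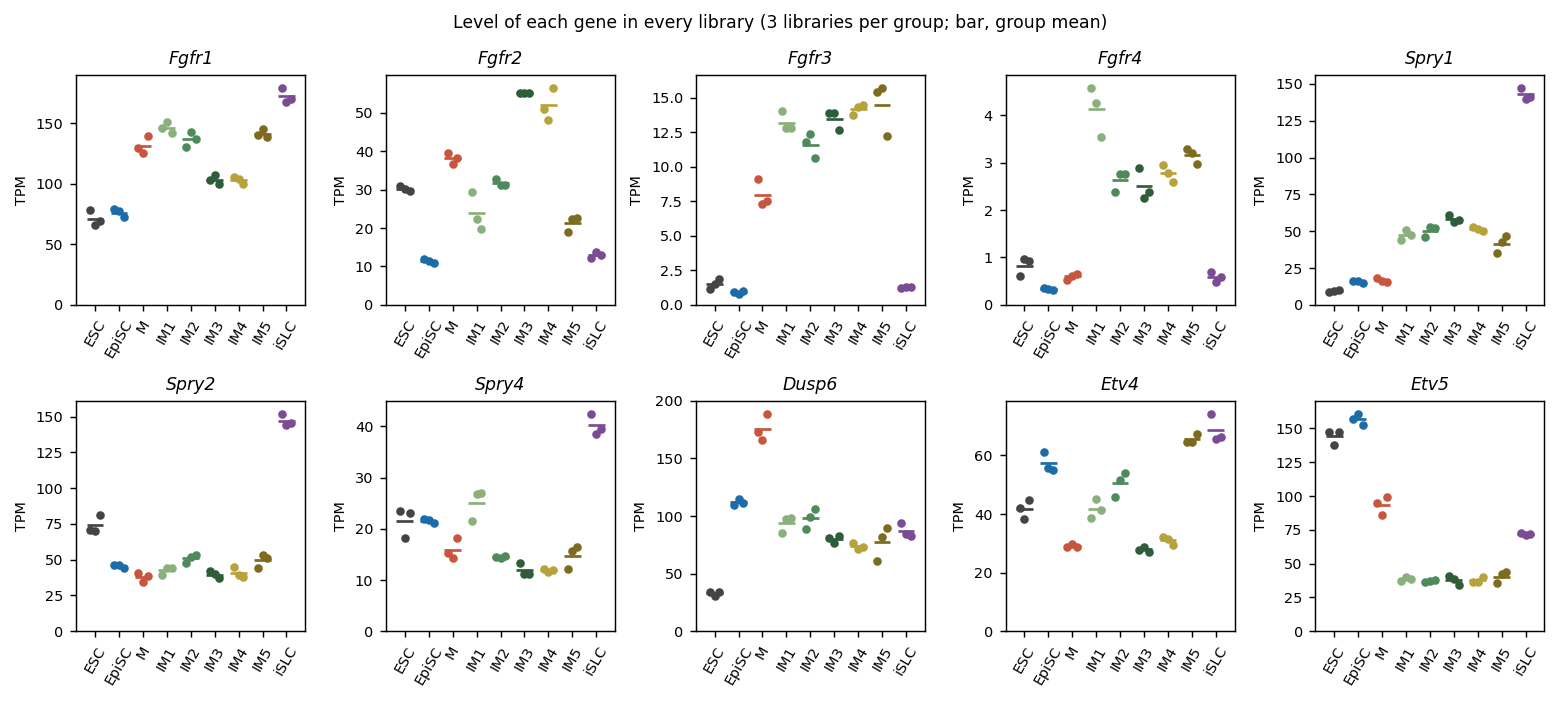
TPM of each gene (vertical axis, from 0) in every library (points) of the 9 groups (horizontal axis), with a bar at the group mean. *Fgfr3* and *Fgfr4* are high in the 5 IM groups, *Etv5* is high in ESC and EpiSC, *Dusp6* peaks in M, and the 3 Sprouty genes are highest in iSLC.

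The receptor mixture therefore changed while the sum of the 4 receptors stayed between 172 and 188 TPM on average from M onward (104 in ESC and 88.9 in EpiSC). *Fgfr1* made up 68.6% ± 1.87 (SD, n = 3) of the sum in ESC and 85.7% ± 0.176 in EpiSC. Its share was lowest in IM3 (59.3% ± 0.701) and IM4 (60.0% ± 2.09), where *Fgfr2* held 31.6% ± 0.754 and 30.2% ± 2.17. In iSLC *Fgfr1* held 92.0% ± 0.600. *Fgfr3* held 6.35% to 8.25% of the sum in IM1 to IM5 on average, 4.49% in M and at most 1.49% elsewhere.

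*Spry1* rose in the IM groups and again in iSLC. It was at 9.11, 9.78 and 10.1 TPM in ESC, 16.1, 16.3 and 15.0 in EpiSC and 18.1, 16.3 and 15.9 in M, and then between 35.1 and 60.9 in the 15 IM libraries. From ESC to EpiSC it was 1.69-fold higher with no overlap (log2 fold change 0.76 ± 0.0797, edgeR adjusted p = 7.12e-09), past the p but not the fold. EpiSC and M overlapped, and no IM library came near either. The fold change from M to the mean of IM1 to IM5 was 2.70 (log2 1.43 ± 0.0639, edgeR adjusted p = 4.79e-17). In iSLC it stood at 140 to 148 TPM.

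*Spry2* and *Spry4* moved less before iSLC. *Spry2* was at 71.0, 70.1 and 81.3 TPM in ESC and between 34.1 and 53.3 in all later libraries up to IM5. It was 1.58-fold lower in EpiSC than in ESC, which passed the p (edgeR adjusted p = 3.06e-09) but not the fold. *Spry4* was at 18.3 to 23.4 TPM in ESC and 21.1 to 21.9 in EpiSC, which overlapped, and at 14.3 to 18.2 in M. *Spry1* was higher and *Spry2* lower in IM3 than in ESC (58.3 and 39.6 TPM as means), and the leading Sprouty gene changed. *Spry2* held 70.3% ± 1.52 of the summed TPM of the 3 genes in ESC and *Spry1* 9.19% ± 0.673, whereas in IM3 *Spry1* held 53.1% ± 1.23 and *Spry2* 36.0% ± 1.07. In iSLC the shares of *Spry1* (43.3%) and *Spry2* (44.6%) lay near each other, and the sum of the 3 genes was 330 ± 10.3 TPM, against 70.6 to 116 as means of the other groups.

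**Figure D2:**
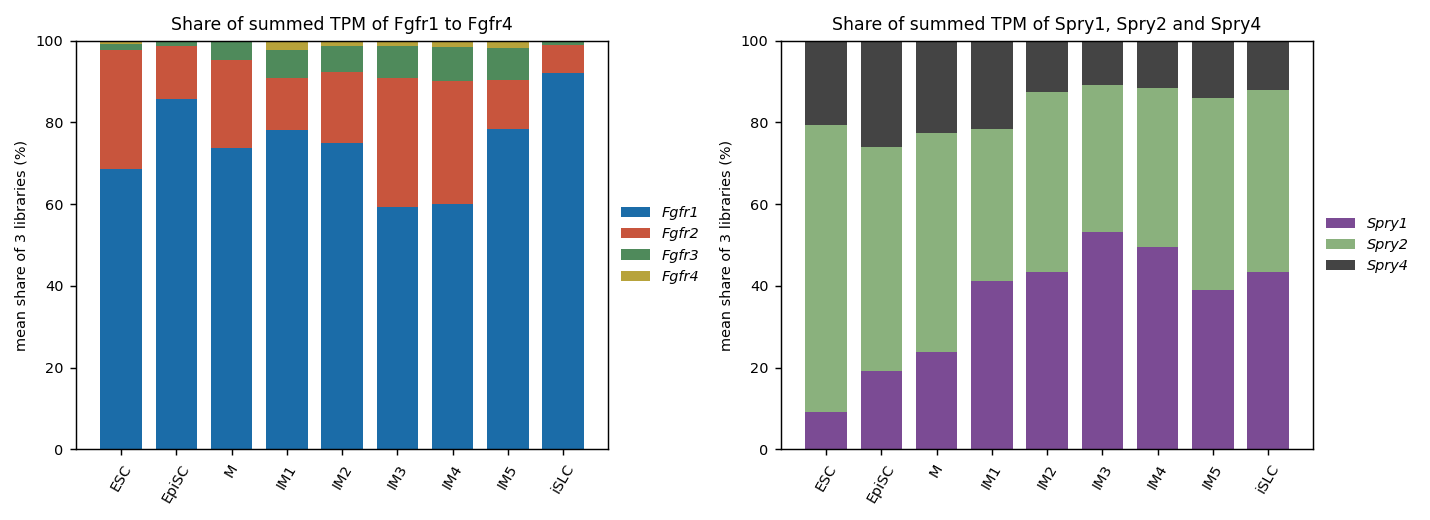
Mean share (%, vertical axis from 0 to 100, 3 libraries per group) of each receptor in the summed TPM of *Fgfr1* to *Fgfr4* (left) and of each Sprouty gene in the summed TPM of *Spry1*, *Spry2* and *Spry4* (right), over the 9 groups. *Fgfr2* takes its largest share in IM3 (31.6%) and IM4 (30.2%), and *Spry1* passes *Spry2* in IM1, IM3 and IM4.

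*Dusp6*, the ERK phosphatase, was lowest in ESC and highest in M. Its TPM was 34.2, 30.7 and 34.0 in ESC, 110, 115 and 111 in EpiSC and 173, 166 and 189 in M. Over the 15 IM libraries it ran from 60.8 to 106, and none reached EpiSC. The lowest of these, IM5 replicate 1, stood apart from its group (60.8 against 82.1 and 89.7). *Dusp6* rose 3.5-fold from ESC to EpiSC (log2 fold change 1.80 ± 0.0826, edgeR adjusted p = 4.81e-16) and fell 2.31-fold from M to the mean of IM1 to IM5 (−1.21 ± 0.0562, edgeR adjusted p = 1.26e-16). From EpiSC to M it was 1.5-fold higher, short of the fold required.

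The ETS factors *Etv4* and *Etv5* differed in their step from M to the IM groups. *Etv5* was at 148, 138 and 147 TPM in ESC, 157, 161 and 153 in EpiSC, and 94.7, 85.7 and 99.1 in M. It then lay between 34.2 and 43.5 in all 15 IM libraries, below every library of the 3 earlier groups. The mean of IM1 to IM5 was 4.75-fold lower than EpiSC (log2 fold change −2.25 ± 0.0345) and 2.69-fold lower than M (−1.43 ± 0.0364), with edgeR adjusted p = 1.86e-27 and 2.57e-22. *Etv4* was at 38.4 to 44.6 TPM in ESC, 55.1 to 61.2 in EpiSC and 28.6 to 29.6 in M, and its 5 IM groups lay on both sides of M and EpiSC. From EpiSC to M both were lower by a similar amount (log2 fold change −0.87 for *Etv4* and −0.82 for *Etv5*), past the p but not the fold. The mean of IM1 to IM5 differed from M by only 0.16 ± 0.0504 for *Etv4* on the log2 scale, and this turned to −0.17 with an offset for GC content.

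The counts of called members are given here beside the share of all genes called at the same step. From ESC to EpiSC, 3 of 10 were called (*Dusp6* up, *Fgfr2* and *Fgfr4* down), where 8.07% of the 20839 genes tested were called. From EpiSC to M it was 2 of 10 (*Fgfr2* and *Fgfr3*, both up) against 14.5%. From M to the mean of IM1 to IM5 it was 4 of 10 (*Fgfr4* and *Spry1* up, *Dusp6* and *Etv5* down) against 15.3%. From EpiSC to the mean of IM1 to IM5 it was 5 of 10 (*Fgfr2*, *Fgfr3*, *Fgfr4* and *Spry1* up, *Etv5* down) against 21%. These comparisons share libraries of EpiSC, M or IM1 to IM5. The median log2 fold change of the 10 genes was 0.11, 0.29, −0.04 and 0.12 at these steps, beside −0.0026, −0.056, 0.00 and −0.0418 over all genes tested. Over the 9 groups together all 10 passed the F test of edgeR at an adjusted p under 0.05, as did 96.4% of all genes.

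IM1 is the IM medium nearest to that of M, with bFGF and BMP4 and without retinoic acid, Activin A or CHIR99021, though it lacks LY294002 and has less bFGF and more BMP4. Here 4 of 10 members were called, against 15.7% of all genes. *Fgfr4* (log2 fold change 2.71 ± 0.145) and *Spry1* (1.42 ± 0.0752) rose and *Etv5* fell (−1.36 ± 0.0525). *Dusp6*, at −1.0 ± 0.0795, sat at the fold required and was no longer called in 8 alternatives, among them DESeq2 and the fits without M replicate 3 or IM1 replicate 1.

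**Figure D3:**
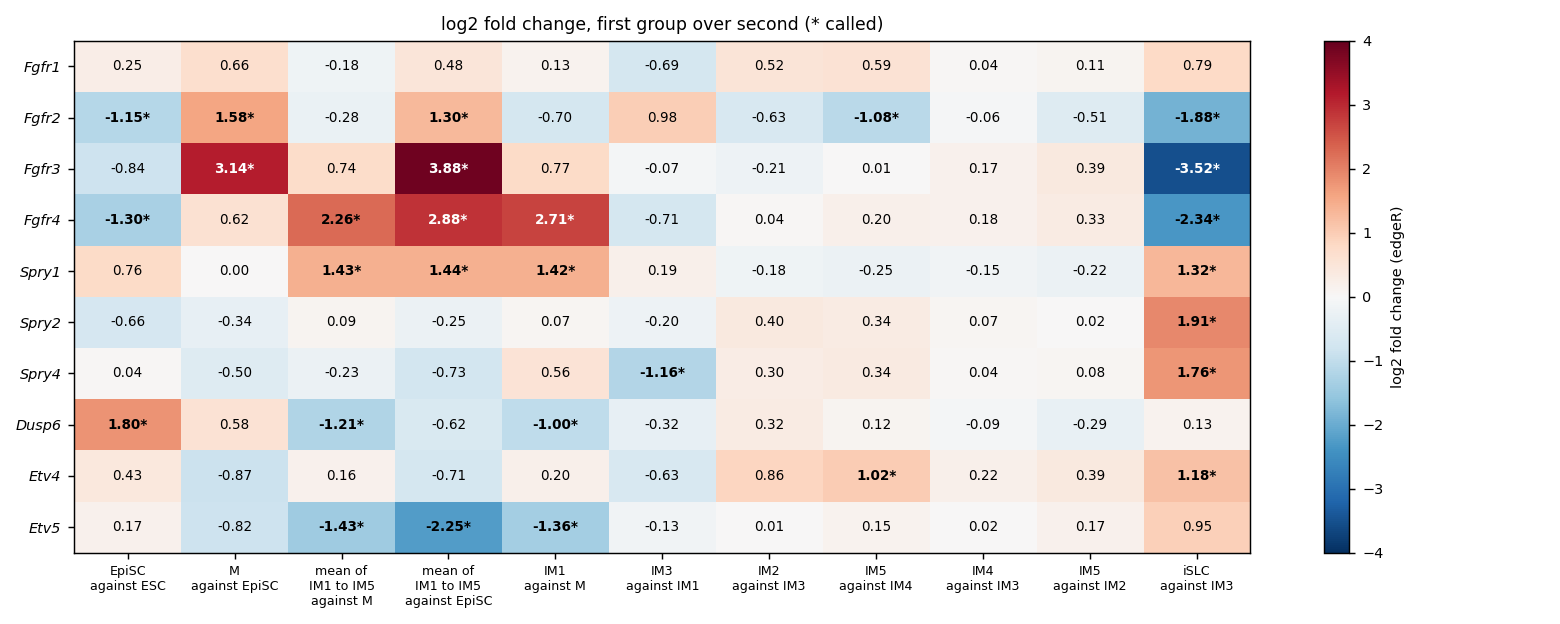
Fitted log2 fold change (colour and printed number, edgeR) of each gene (rows) in 11 comparisons of groups (columns), first group over second, with a star on calls. Of the 10 genes, 2 to 5 are called between stages up to IM1 to IM5, where 8.07% to 21% of all genes are. In iSLC against IM3 it is 7 (19.2% of all genes), and between IM conditions 0 to 2 (0.101% to 6.34%).

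By bFGF dose the members did not share a pattern. Only *Dusp6* had group means that rose from 5 to 12 to 20 ng/ml with all 5 IM groups lowest, at 73.8 to 97.9, 112 and 176 TPM. Of all genes tested 6.03% had this order. No member fell with the dose in TPM, where 10.7% of all genes did, although *Spry1* met that order in FPKM with nearly equal means at 12 and 20 ng/ml (10.8 and 10.7). The 4 receptors and *Spry1* were lowest at 12 ng/ml, *Etv5* was highest at 12 ng/ml and *Spry2* lowest at 20 ng/ml. For *Spry4* and *Etv4* the IM groups lay on both sides of the other doses. The order of *Spry1*, *Spry2* and *Etv4* changed with the unit (TPM, FPKM or normalized counts), and that of the other 7 did not.

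The spread among the 5 groups at the same 5 ng/ml gives a scale for these differences. It was 2.59-fold for *Fgfr2*, 2.35-fold for *Etv4* and 2.11-fold for *Spry4*, and only 1.08-fold for *Etv5*. This spread exceeded the change from 12 to 20 ng/ml, in either direction, for *Etv4* (ratio of M to EpiSC 0.506), *Spry4* (0.74), *Spry2* (0.832, spread 1.29-fold) and *Spry1* (means of 15.8 and 16.8 TPM, spread 1.4-fold), and not for the other 6. For *Dusp6* the ratio of 20 to 5 ng/ml was 2.08, with 1.33-fold spread at 5 ng/ml. For *Etv5* the ratio of 12 to 5 ng/ml was 4.09. The cells at each dose differed in stage, time and other agents as well.

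**Figure D4:**
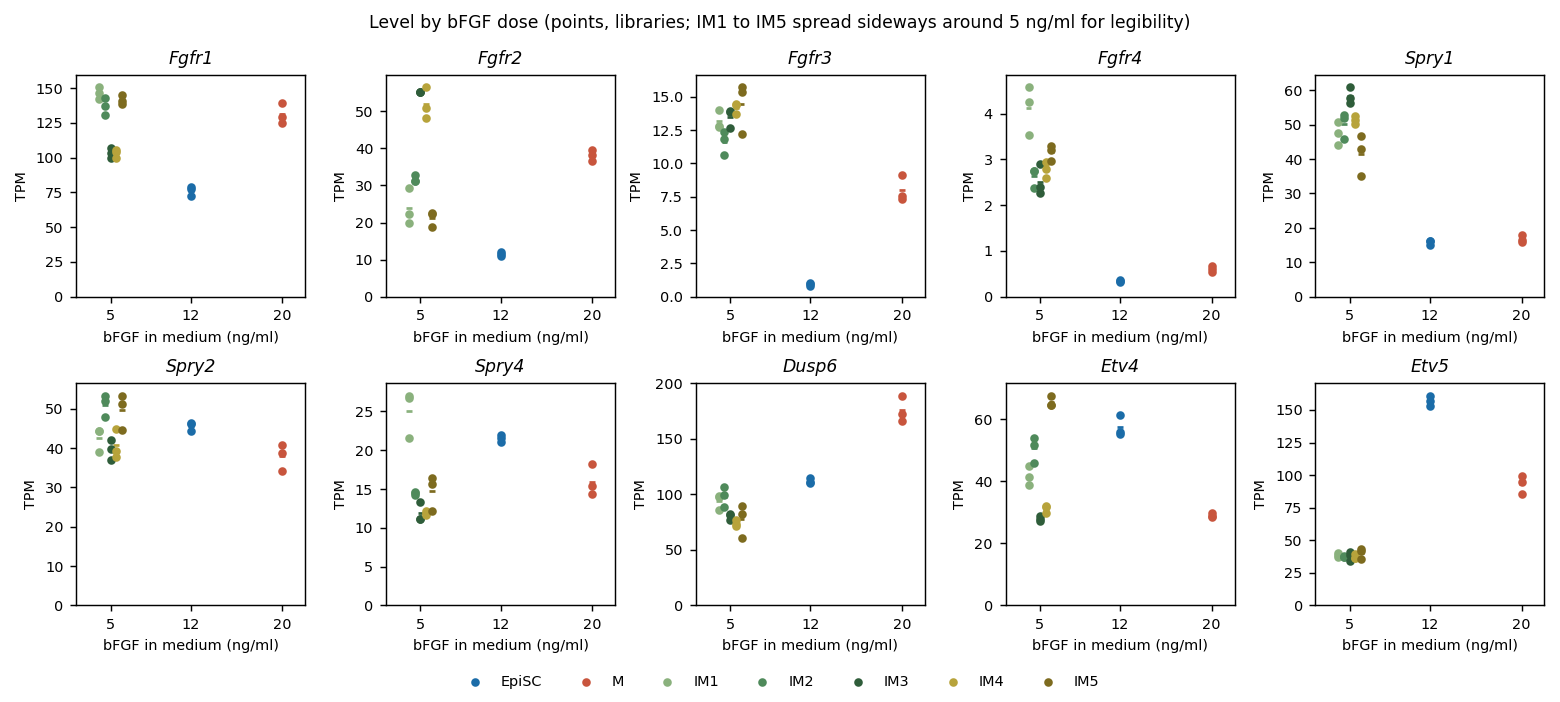
TPM of each gene (vertical axis, from 0) against the bFGF dose of the medium (5, 12 or 20 ng/ml, horizontal axis), 1 point per library and a bar at each group mean. IM1 to IM5 share 5 ng/ml and are spread sideways, EpiSC is at 12 and M at 20. *Dusp6* has the lowest libraries at 5 and the highest at 20, while *Fgfr2*, *Etv4* and *Spry4* spread over a 2.11-fold to 2.59-fold range at 5 alone.

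At the one dose of 5 ng/ml all 10 members differed among IM1 to IM5 by the F test of edgeR (adjusted p from 2.02e-14 for *Etv4* to 0.0109 for *Etv5*), as did 64.1% of all genes. *Etv5* or *Fgfr3* dropped out in 7 of the alternatives. The widest was *Fgfr2*, at 29.4, 22.2 and 19.9 TPM in IM1, 32.8, 31.2 and 31.2 in IM2, 55.1, 55.1 and 55.2 in IM3, 51.0, 48.2 and 56.5 in IM4 and 18.9, 22.4 and 22.6 in IM5. IM3 and IM4, the conditions with retinoic acid and no Activin A, overlapped each other and lay above all other IM libraries.

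*Etv4* was lowest in IM3 and IM4, where *Fgfr2* was highest, and highest in IM5, where *Fgfr2* was lowest. Its TPM was 27.9, 28.7 and 27.2 in IM3 and 32.2, 31.6 and 29.6 in IM4. It was 38.7, 45.0 and 41.5 in IM1, 45.9, 51.7 and 54.0 in IM2 and 64.6, 64.6 and 67.5 in IM5. IM5, with both Activin A and CHIR99021, was above every other IM library and overlapped only iSLC in level.

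Retinoic acid was tested by IM3 against IM1. *Spry4* was at 21.6, 26.8 and 27 TPM in IM1 and 13.4, 11.2 and 11.1 in IM3. It fell 2.24-fold (log2 fold change −1.16 ± 0.0868, edgeR adjusted p = 1.59e-11), the 1 member of 10 called, where 6.34% of all genes were. *Fgfr2* was 1.97-fold higher in IM3 (0.98 ± 0.0796, edgeR adjusted p = 8.29e-11), just under the fold. It was called with an offset for gene length, on TPM, and without IM1 replicate 1. *Fgfr1* (1.61-fold), *Fgfr4* (1.64-fold) and *Etv4* (1.55-fold) were lower in IM3, past the p but not the fold. The value of *Etv4* shrank from −0.63 to −0.19 with an offset for GC content. Of 12 cell dissociation stress genes 5 were lower in IM3 as well (summed TPM 293 to 325, against 477 to 537 in IM1). Markers of other cell types (5 genes each) differed too. Endothelial markers summed to 70.0 to 81.0 TPM in IM3 against 142 to 155 in IM1, and cardiac muscle markers to 230 to 458 against 127 to 161. Early mesoderm markers summed to 5.86 to 6.90 against 102 to 122 and intermediate mesoderm markers to 139 to 167 against 13.1 to 14.2. No gene of these lists was at 0 in every library of a group. In IM3 the intermediate mesoderm sum was mostly *Wt1* (mean 149 TPM, against 6.39 in IM1). *Osr1* (1.11 against 3.49), *Lhx1* (0.44 against 3.44) and *Pax2* (0.04 against 0.22) were lower in IM3, and *Pax8* was at 0.02 in both. The part of any of these in the member values was not tested.

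Activin A was tested without and with CHIR99021, by IM2 against IM3 and IM5 against IM4. In the first, 0 of 10 members were called at the fold of 2 (3.8% of all genes), although 8 had an unadjusted p under 0.05 in edgeR and 6 an adjusted p of at most 0.01, as did 26.1% of all genes at the count required. *Etv4* (log2 fold change 0.86 ± 0.0654), *Fgfr1* (0.52 ± 0.0432) and *Fgfr2* (−0.63 ± 0.0792) had the largest values. DESeq2 also called none. In the second, 2 of 10 were called (4.09% of all genes). *Fgfr2* fell 2.12-fold (−1.08 ± 0.08, edgeR adjusted p = 2.92e-11) and *Etv4* rose 2.03-fold (1.02 ± 0.064, edgeR adjusted p = 1.09e-12). The call of *Etv4* was lost without IM5 replicate 1 (0.99) and with an offset for GC content (0.53). The difference between both Activin A effects for *Fgfr2* was −0.45 ± 0.112 on the log2 scale, with an edgeR adjusted p of 0.0601 (0.00449 to 0.233 over the alternatives). No member was called for that difference (0.0336% of all genes), and 1 had an unadjusted p under 0.05.

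The stress genes moved with Activin A too, with 3 of 12 higher in IM2 than in IM3 and 4 of 12 higher in IM5 than in IM4. Of all genes 3.8% and 4.09% were called in turn. Their summed TPM was 490 to 600 in IM2 and 582 to 624 in IM5, against 293 to 325 in IM3 and 288 to 374 in IM4. Cardiac muscle markers summed to 120 to 151 TPM in IM2 and 52.6 to 62.0 in IM5, against 230 to 458 in IM3 and 115 to 144 in IM4. Intermediate mesoderm markers summed to 32.7 to 36.7 in IM2 and 21.7 to 26.2 in IM5, against 139 to 167 in IM3 and 112 to 128 in IM4. The part of these lists in the values of *Etv4* and *Fgfr2* was not tested.

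No member was called for CHIR99021 at 0.3 µM. Between IM4 and IM3, 0 of 10 were called by edgeR and DESeq2 (0.101% of all genes), and 2 had an unadjusted p under 0.05 in edgeR. The log2 fold changes of the 10 lay between −0.15 and 0.22. The smallest edgeR adjusted p was 0.0995, for *Etv4* (0.22 ± 0.0663). Between IM5 and IM2, again 0 were called (0.235% of all genes). There 8 had an unadjusted p under 0.05 and 3 passed the adjusted p alone in edgeR (3.88% of all genes, at the count required), namely *Fgfr2* (−0.51 ± 0.08), *Fgfr3* (0.39 ± 0.0889) and *Etv4* (0.39 ± 0.0626).

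In iSLC against IM3, the cells they came from, 7 of 10 members were called, where 19.2% of all genes were, and every member had libraries that did not overlap, as did 75.9% of all genes. The Sprouty genes rose together. *Spry2* went from 42.0, 39.8 and 37.0 TPM in IM3 to 152, 144 and 146 in iSLC, *Spry1* from 60.9, 56.3 and 57.8 to 148, 140 and 141, and *Spry4* from 13.4, 11.2 and 11.1 to 42.4, 38.6 and 39.5. The folds were 3.77 for *Spry2* (log2 1.91 ± 0.0685), 3.40 for *Spry4* (1.76 ± 0.0875) and 2.51 for *Spry1* (1.32 ± 0.0723), with edgeR adjusted p of 4.15e-15 or less.

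Of the ETS factors *Etv4* rose 2.26-fold (log2 fold change 1.18 ± 0.0652), from 27.2 to 28.7 TPM in IM3 to 65.6 to 74.2 in iSLC. With an offset for GC content this was 0.64, and not called. *Etv4* has the highest GC content of the members, 61.5%. *Etv5* was 1.93-fold higher (0.95 ± 0.0526), under the fold, and was called without IM3 replicate 1. *Dusp6* was at 77.0 to 82.5 TPM in IM3 and 82.9 to 94.2 in iSLC, a log2 fold change of 0.13 ± 0.0798 with an edgeR adjusted p of 0.134 (0.00964 to 0.457 over the alternatives). Among the 6 feedback and target genes *Dusp6* was thus the one whose value missed the p.

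The receptors other than *Fgfr1* fell. *Fgfr3* went from 13.9, 13.9 and 12.6 TPM in IM3 to 1.26, 1.33 and 1.32 in iSLC, an 11.5-fold fall (log2 fold change −3.52 ± 0.11, edgeR adjusted p = 3.06e-20). *Fgfr4* fell 5.07-fold (−2.34 ± 0.152), to 0.48 to 0.69 TPM. *Fgfr2* fell 3.69-fold (−1.88 ± 0.083), to 12.3 to 13.9 TPM. *Fgfr1* was 1.73-fold higher (0.79 ± 0.0433), under the fold. The medium of iSLC held FGF9 and EGF in place of bFGF, and the cells had been sorted. Of the 12 dissociation stress genes 6 were higher and 2 lower in iSLC, where 19.2% of all genes were called. The endothelial markers (5 genes) summed to 3.10 to 4.18 TPM against 70.0 to 81.0 in IM3. Cardiac muscle markers summed to 148 to 149 TPM against 230 to 458. The part of these in the member values was not tested.

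Across the 9 groups the members did not vary as one block. Pearson's r of mean log2 normalized counts over 9 groups was 0.87 for *Fgfr3* and *Fgfr4*, 0.78 for *Spry2* and *Spry4* and 0.71 for *Fgfr2* and *Fgfr3*. It was −0.90 for *Fgfr2* and *Etv4*, −0.85 for *Fgfr4* and *Etv5* and −0.83 for *Fgfr3* and *Etv5*. *Etv4* had an r of 0.60 with *Spry2* and 0.62 with *Spry4*, and *Fgfr2* had 0.52 with *Fgfr4*. *Etv4* and *Etv5* had an r of 0.43 (0.17 on log2 TPM). These are descriptions over 9 points that share stage, depth and GC trend. Within groups, as deviations of the 27 libraries from their group means, r was 0.71 for *Fgfr3* and *Fgfr4*, 0.45 for *Spry2* and *Spry4* and −0.20 for *Fgfr2* and *Etv4*. The highest r within groups was 0.80, for *Fgfr1* and *Etv4*. *Dusp6* had 0.69 with *Spry4*, 0.64 with *Spry1* and 0.49 with both *Spry2* and *Etv5*.

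Of all genes with a mean normalized count of at least 100, those most like a member over the 9 groups were *Rcc2* for *Etv5* (r = 0.995, n = 9), *Dzip1* for *Spry1* (0.992), *Ik* for *Fgfr3* (0.992) and *Gdap2* for *Fgfr4* (0.99). *Zfp688* was most like *Fgfr1* (0.984), *Vsig10* most like *Spry2* (0.979), *Spc25* most like *Fgfr2* (0.973) and *Ube2j2* most like *Etv4* (0.972). For *Dusp6* it was *Il15ra* (0.962). For *Spry4* it was *Egr1* (0.936), the lowest r of these best matches. Each is the best of all such genes over only 9 points, which makes a high r likely for any gene. The matches are descriptions only.

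Several ligands changed by more than any receptor. *Fgf8* rose by a log2 fold change of 6.04 from ESC to EpiSC and *Fgf10* by 6.77 from EpiSC to M (edgeR). Of 22 FGF genes 17 were tested. At the 3 steps that follow, 8.07%, 14.5% and 15.3% of all genes were called. From ESC to EpiSC 4 rose and 3 fell, among them *Fgf8* (2.25 to 109 TPM), *Fgf5*, a marker of primed epiblast (3.34 to 119 TPM), and *Fgf4*, the FGF of naive cells (84.5 to 25.9 TPM). From EpiSC to M 2 rose and 3 fell, with *Fgf10* from 0.40 to 45.3 TPM and *Fgf3* from 1.28 to 49.6. From M to the mean of IM1 to IM5 2 rose and 7 fell, with *Fgf8* from 177 to 1.05 TPM and *Fgf3* from 49.6 to 2.15. The summed TPM of the 22 FGF genes was 305 to 316 in EpiSC and 305 to 334 in M, and 26.5 to 39.8 in the 15 IM libraries. The median log2 fold change of the 17 was −0.08, −0.64 and −0.12 at these steps. In iSLC against IM3 2 of the 17 rose and 2 fell, where 19.2% of all genes were called. *Fgf11* rose from 0.75 to 22.8 TPM and *Fgf2*, which encodes bFGF itself, from 1.82 to 12.1. *Fgf15* fell from 3.83 to 0.35 TPM and *Fgf10* from 10.4 to 1.89.

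Among 17 coreceptors and adaptors near the receptor, 3, 6 and 4 were called at the same 3 steps, where 8.07%, 14.5% and 15.3% of all genes were, and 4 in iSLC against IM3, where 19.2% were. The median log2 fold change of the 17 was −0.01, 0.08, 0.13 and −0.01 in turn. *Flrt3*, a membrane partner of FGF receptors, rose from 2.89 TPM in EpiSC to 21.3 in M, and stood at 85.1 in IM3 and 8.13 in iSLC. It was lower in IM2 than in IM3 (log2 fold change −1.13) and in IM5 than in IM4 (−1.37), the one gene of this list called in either, and in iSLC it fell by 3.40 on the log2 scale (edgeR adjusted p = 5.8e-23). *Klb*, coreceptor for endocrine FGFs, rose from 0.12 TPM in M to 2.15 over IM1 to IM5. Of the 11 genes from RAS to ERK, 1, 2 and 2 were called at these steps, shares near those of all genes, with *Mapk3*, which encodes ERK1, falling from 164 TPM in M to 76.5 over IM1 to IM5. In iSLC *Mapk3* rose to 137 TPM from 68.6 in IM3, and *Nras* fell.

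Other genes of ERK feedback went both ways. Of 12 listed, 11 were matched and tested. The share of all genes called was 8.07% from ESC to EpiSC, 15.3% from M to the mean of IM1 to IM5 and 19.2% in iSLC against IM3. From ESC to EpiSC 4 rose and 1 fell, with *Dusp4* from 3.56 to 25.1 TPM and *Dusp7* from 9.41 to 29.5, both ERK phosphatases, and *Dusp9* from 312 to 126. From M to the mean of IM1 to IM5 1 rose and 2 fell, among them *Il17rd*, which encodes the FGF antagonist SEF (106 to 17.7 TPM), and *Spred1* (102 to 42.7 TPM). In iSLC against IM3 1 rose (*Lrig1*) and 3 fell (*Dusp9*, *Dusp4* and *Dusp5*), the latter all phosphatases, while the 3 Sprouty genes rose.

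Of 14 other ERK target genes, 6 were higher and 3 lower in iSLC than in IM3, with a median log2 fold change of 0.71 beside 0.00 over all genes tested. *Egr1* rose from 6.18 to 138 TPM, *Egr2* from 1.34 to 8.24 and *Etv1*, the third gene of the ETV4 family, from 3.04 to 15.2, while *Phlda1*, *Fosl1* and *Myc* fell. In IM3 against IM1 5 of 14 were lower and 0 higher, with *Ier3* at 7.82 against 30.1 TPM, *Egr1* at 6.18 against 21.4 and *Myc* at 43.1 against 106. With Activin A 3 of 14 were higher in IM2 than in IM3 and 3 of 14 in IM5 than in IM4. *Ier3*, *Etv1* and *Elk3* led in both, with *Etv1* at 11.6 against 3.04 TPM and at 9.37 against 2.74. The shares of all genes called were 19.2% (iSLC against IM3), 6.34% (IM3 against IM1), 3.8% (IM2 against IM3) and 4.09% (IM5 against IM4). The list shares *Fos* with the dissociation stress genes. The iSLC had been sorted, and the part of sorting in these values was not tested. Of 4 genes of the EGF receptor family, *Egfr* rose from 23.7 TPM in IM3 to 52.9 in iSLC, whose medium held EGF, *Erbb4* rose from 0.34 to 1.81 and *Erbb3* fell from 3.95 to 0.71.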

How the data were processed

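Total RNA of 27 libraries (9 groups of 3) was sequenced as 75-base read pairs from TruSeq v2 libraries. Per the submitters' processing notes the authors trimmed reads with Cutadapt 1.9.1, aligned them to GRCm38 with STAR 2.5.2a and quantified genes of Ensembl release 86 with RSEM 1.3.0. The authors deposited expected counts, the fragments per gene that RSEM estimates, which are not scaled between libraries. The TPM values the authors deposited are divided by effective length and brought to the same sum in each library. The deposited FPKM values are divided by length and library total. Gene names and coordinates came from GENCODE M21 (GRCm38), which matched 99.09% of the 48795 genes and 99.96% of the counts.

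Expected counts were rounded, filtered with filterByExpr (20839 genes kept), scaled by TMM and fitted in 1 model of the 9 groups with the quasi-likelihood functions of edgeR 4.0.16 (R 4.3.3). All groups share 1 estimate of the spread. For a call, the p adjusted over every gene tested had to be 0.01 or lower, the fold 2 or higher, and the mean normalized count 100 or higher, both across the 27 libraries and in 1 of the groups compared. F tests used an adjusted p under 0.05. The ± beside a log2 fold change is its SE, and beside a share or level the SD. Levels between genes were compared in TPM only. A TPM at or under what 3 counts give was to be taken as not detectable, and covers counting error only; no member fell to it. The steps were checked on simulated counts.

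The members and gene lists were chosen with earlier results of these data known. Named are all members, up to 3 called genes in each direction per list and comparison, and the genes most like a member. Other fits were DESeq2 1.42.0, DESeq2 size factors, an effective-length offset, other filters and thresholds, only the groups compared, limma 3.58.1 on log2(TPM + 1) and log2(TPM + 0.1), a replicate block, and the leaving out of single libraries. A per-library offset for GC content was added after the data were seen. Replicate numbers come from the labels, which do not say that equal numbers share a culture. Deviations of same-numbered libraries correlated by 0.0182 on average, and only in IM4 against IM3 were all 3 pairs over 0.1 (0.177, 0.187 and 0.181).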

Additional observations from a re-analysis of the deposited data

How the results depend on the processing

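Over the alternatives, 307 counts stayed within 1.5 times of the value reported and 17 did not, as follows. With no fold minimum, 9 of 10 members were called from ESC to EpiSC, 8 from EpiSC to M, 9 from M to the mean of IM1 to IM5, 10 from EpiSC to that mean, 9 in IM1 against M, 6 in IM3 against IM1, 6 in IM2 against IM3, 6 in IM5 against IM4 and 3 in IM5 against IM2. In IM3 against IM1, 2 members in place of 1 were called with the effective-length offset and with limma on TPM at either pseudocount, and 1 to 2 with a library left out (2 without IM1 replicate 1), *Fgfr2* being the one gained each time. In IM5 against IM4, 1 member in place of 2 was called with the GC offset, with or without the replicate block, and 1 to 2 with a library left out (1 without IM5 replicate 1), *Etv4* being the one lost. In FPKM 1 member fell with the bFGF dose in place of 0. The GC offset, with or without the replicate block, turned the log2 fold change of *Etv4* from 0.16 to −0.17 (M to the mean of IM1 to IM5) and from 0.20 to −0.31 (M to IM1). The causes were not tested.

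The replicate block alone changed no member's call, including IM4 against IM3, where the numbers deviate together and 0 members were called with it. Over all genes, dropping the count minimum raised the number called by 1.71 to 2.27 times (from 1682 to 3826 in EpiSC against ESC) and dropping the fold minimum by 2.61 to 16.5 times (from 49 to 808 in IM5 against IM2). Depth limits *Fgfr4* and *Fgfr3* most, with 44 and 97 counts in their lowest library. Dose, stage and other agents change together, and splice forms were not told apart.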
